A study of Mus musculus with 6 samples.

Results

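The genes described here are 9 of the LDL receptor family, Vldlr, Lrp1, Lrp4, Lrp5, Lrp6, Lrp8, Lrp10, Lrp12 and Sorl1, out of 16000 genes listed. They were picked by symbol with earlier results of the same knockout against wild-type comparison in view. Their differences between the groups are therefore given as a description, with errors and without p-values. The libraries are 3 of RAI16 KO cells (genotype Rai16 KO) and 3 of wild-type cells (genotype WT), both of the mouse fibroblast line NIH3T3 and both under serum starvation. The labels give neither the lesion that made the knockout nor whether the libraries of a group were separate cultures or clones, so errors measure only the spread between libraries, which may be technical.

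Receptors of the LDL receptor family sit in the plasma membrane, bind ligands outside the cell with small cysteine-rich repeats, and carry them into clathrin-coated pits. Several also signal: Lrp5 and Lrp6 are the co-receptors through which Wnt ligands reach beta-catenin, and Vldlr and Lrp8 pass the reelin signal to the adaptor Dab1. In fibroblasts the family is best known for Lrp1, which clears proteases with their inhibitors, matrix proteins and lipoprotein remnants.

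Total counts ran from 17805417 to 18368760 in KO libraries and from 16741607 to 17482451 in WT libraries. The targeted gene, listed as Fam160b2, had 410, 394 and 390 counts in KO replicates 1 to 3, against 440, 375 and 411 in WT, so its level does not check the labels. All 10 fibroblast markers passed 1 CPM (counts scaled to the size of the library), with sums of 20472 to 23646 CPM in KO and 24107 to 24567 CPM in WT. Other markers were low: epithelial markers, 6 of 8 listed in the tables, summed to at most 5.94 CPM in KO and 2.53 CPM in WT. Endothelial markers, 7 of 7 listed, reached 6.97 CPM in KO and 2.88 CPM in WT. Leukocyte markers, 7 of 8 listed, reached 26.1 CPM in KO and 26.5 CPM in WT, mostly from Cd14. Neural markers, 7 of 8 listed, reached 7.54 CPM in KO and 20.7 CPM in WT; Map2 among them averaged 1.91 CPM in KO and 13.1 CPM in WT. Muscle markers, 5 of 6 listed, summed to 0.651 to 85 CPM in KO and 0.636 to 1.26 CPM in WT. The high value was that of KO replicate 2, where Acta1 reached 58.4 CPM, and no marker in the tables was at 0 in all libraries. The part of these genes in the results below was not tested.

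Replicate 2 of the knockout also stood apart by gene length, which bears on this family because most of its messages are long. Its log2 CPM minus the mean of KO replicates 1 and 3 had a median of 0.31 among the shortest tested genes (206 to 1382 bases, 1198 genes) and −0.34 among the longest (8918 to 117466 bases, 1198 genes). The same difference for WT replicate 2 ran only from −0.05 to 0.02. For the receptors it was −0.72 for Lrp1 (14943 bases), −0.56 for Lrp4 (8028 bases), −0.54 for Lrp6 (9175 bases) and −0.46 for Lrp8 (11103 bases). It was −0.26 for Lrp5 (5172 bases), −0.22 for Lrp12 (4345 bases) and 0.00046 for Lrp10 (3357 bases). The 1564 tested genes of at least 8000 bases had a median of −0.32, with quartiles of −0.52 and −0.14, so Lrp1, Lrp4 and Lrp6 lay below the lower quartile and Lrp8 within the quartiles. The fold changes of the receptors are therefore given with and without this library.

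**Figure D1:**
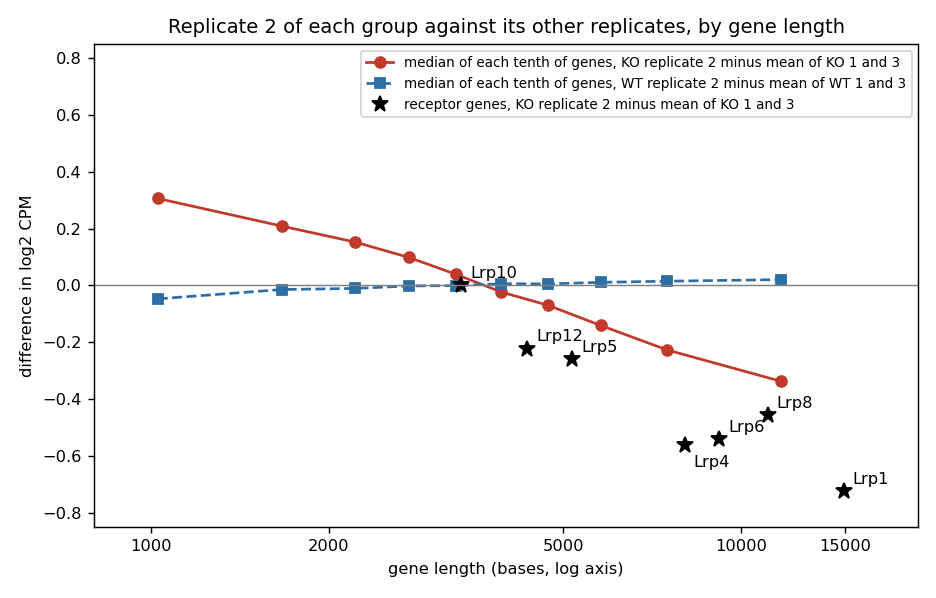
Difference in log2 CPM between replicate 2 and the mean of replicates 1 and 3 of the same group, against gene length in bases on a log axis. Lines join the medians of length classes of the tested genes (red circles KO, blue squares WT), and stars mark 7 receptor genes in KO, which run from near 0 for Lrp10 to −0.72 for Lrp1; Vldlr is left out because it had at most 2 counts per KO library.

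Vldlr and Lrp10 showed the largest differences of the family and Lrp1 was its most abundant message, so the 250 bases upstream of their transcription starts are shown. The windows come from RefSeq, mouse build GRCm38.p6 (the submitters' processing notes name GRCm39), at chr19:27216770-27217019 (plus strand) for Vldlr, chr14:54463897-54464146 (plus strand) for Lrp10 and chr10:127621149-127621398 (minus strand) for Lrp1. Of the 9 genes, 4 had a window that runs into a protein-coding start, Sorl1 being the other. Capitals mark hits, on either strand, to any of 4 motifs: the GC box GGGCGG, the CCAAT box CCAAT, the TATA box TATAAA and the E box CACGTG. No hits overlap.
Vldlr, upstream window: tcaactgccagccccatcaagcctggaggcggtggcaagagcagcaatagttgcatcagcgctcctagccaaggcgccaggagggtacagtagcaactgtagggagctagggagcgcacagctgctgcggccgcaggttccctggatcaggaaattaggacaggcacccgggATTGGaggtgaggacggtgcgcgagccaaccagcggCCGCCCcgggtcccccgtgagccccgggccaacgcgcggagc
Lrp10, upstream window: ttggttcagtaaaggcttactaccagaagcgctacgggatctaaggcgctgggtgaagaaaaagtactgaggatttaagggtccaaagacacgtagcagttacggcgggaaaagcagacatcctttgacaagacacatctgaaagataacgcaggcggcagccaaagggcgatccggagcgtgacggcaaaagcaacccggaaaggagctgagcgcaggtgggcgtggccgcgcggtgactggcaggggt
Lrp1, upstream window: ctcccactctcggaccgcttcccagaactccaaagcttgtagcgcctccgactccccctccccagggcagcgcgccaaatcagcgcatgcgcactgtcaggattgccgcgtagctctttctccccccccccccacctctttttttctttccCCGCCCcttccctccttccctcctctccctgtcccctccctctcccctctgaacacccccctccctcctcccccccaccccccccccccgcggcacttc
The Vldlr window held 1 GC box and 1 CCAAT box, the Lrp1 window 1 GC box, and the Lrp10 window none of the 4 motifs. Among 12179 windows of tested genes, 57.7% held the GC box, 36.0% the CCAAT box, 6.49% the TATA box and 8.23% the E box. Unlike the windows shown, these were not required to run into a protein-coding start. The Vldlr and Lrp10 windows each had 18 CpG dinucleotides and the Lrp1 window 13, where the median window had 16 and the quartiles were 8 and 23. These matches describe letters only.

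Within wild-type cells the family spanned a wide range of levels. By FPKM, the authors' value per length and library total, Lrp1 led with 147 ± 2.03 (SD, n = 3), ahead of Lrp10 at 24.7 ± 0.677. Lrp5 followed at 19.3 ± 0.131, then Lrp6 at 13.2 ± 0.187, Lrp12 at 13.1 ± 0.241 and Lrp8 at 8.06 ± 0.402 FPKM. Lrp4 at 0.735 ± 0.0989 and Vldlr at 0.475 ± 0.0656 FPKM were far lower, and Sorl1 was listed at 0.0102, 0 and 0 FPKM. The only neighbours in this order whose WT libraries overlapped were Lrp6 and Lrp12. In the KO libraries the order of the upper part was again Lrp1, Lrp10, Lrp5 and Lrp6, but now Lrp5, Lrp6 and Lrp8 each overlapped with the next in rank, Lrp8 with Lrp12.

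**Figure D2:**
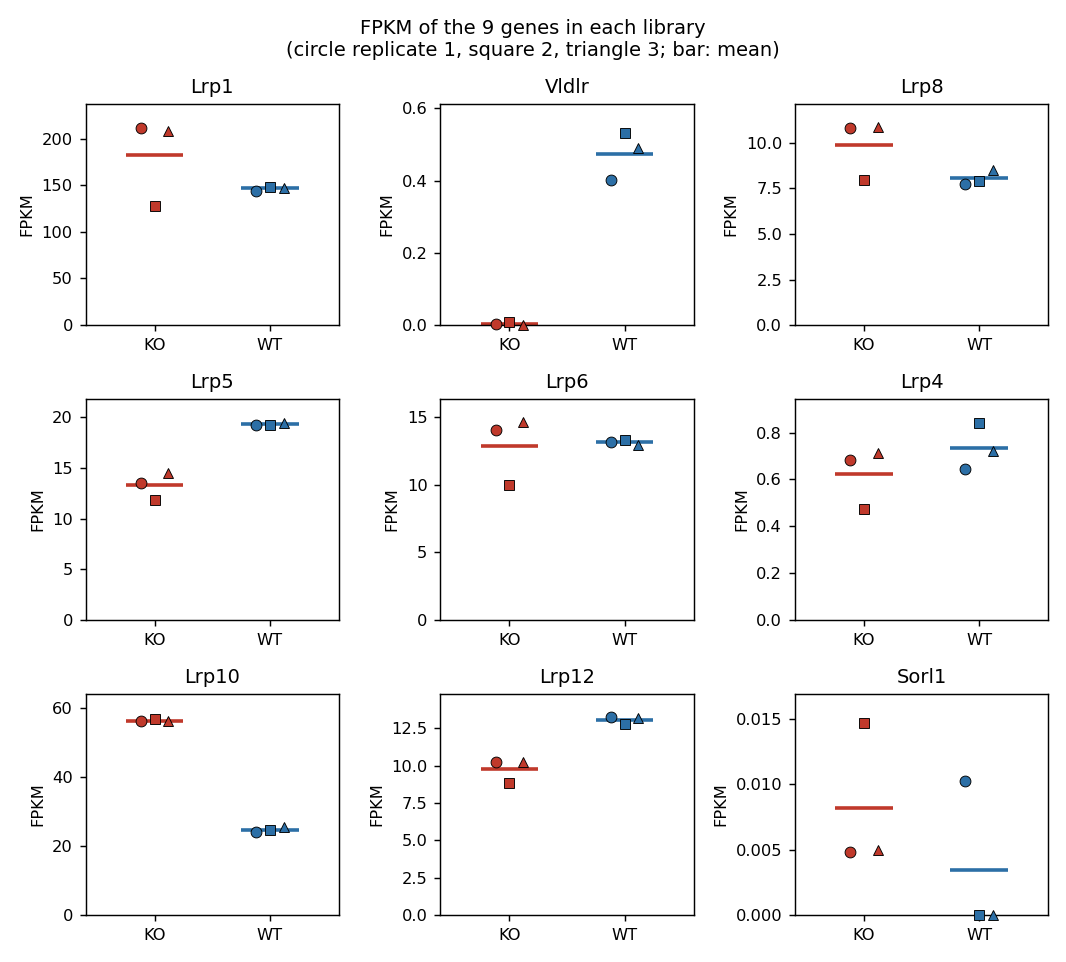
FPKM of each of the 9 genes in every library, with KO on the left and WT on the right of each panel; symbols mark replicates 1 to 3, bars mark group means, and each panel has its own axis from 0. The groups do not overlap for Vldlr, Lrp5, Lrp10 and Lrp12, and KO replicate 2 (square) is the lowest KO library for Lrp1, Lrp4, Lrp5, Lrp6, Lrp8 and Lrp12.

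Across the knockout comparison the family did not move one way. Of the 9 genes, 8 had enough counts to be tested. By edgeR's quasi-likelihood test 1 was called higher in KO (Lrp10) and 3 lower (Vldlr, Lrp5 and Lrp12). Over all 11972 tested genes 59.6% were called, 30.5% higher and 29.2% lower. Without KO replicate 2 the calls were 4 higher (Lrp1, Lrp6 and Lrp8 beside Lrp10) and 3 lower, where 71.1% of all genes were called. With the length offset described below 3 were called higher and 3 lower, where 67.1% of all genes were called. The median log2 fold change of the 8 was −0.14, against 0.0028 over all genes, and became 0.02 without KO replicate 2. For 4 of the 8 every KO library lay on 1 side of every WT library in CPM, against 67.6% of all genes. Since the genes were chosen with this contrast known, nothing is read from these counts. In bulk RNA, fewer cells with a message and less message per cell cannot be told apart.

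The endocytic receptor Lrp1 was high in every library. It had 3154, 1896 and 3111 CPM in KO replicates 1 to 3, against 2167, 2223 and 2209 CPM in WT replicates 1 to 3. KO replicates 1 and 3 lay above all WT libraries and KO replicate 2 below them, so the groups overlapped. The log2 fold change of KO over WT was 0.31 ± 0.17 (SE), with a 95% interval from −0.07 to 0.68. Without KO replicate 2 it was 0.51 ± 0.023. With all libraries and an offset for each library's trend with gene length, an alternative chosen after seeing the data, it was 0.51 ± 0.073. Lrp1 alone made up 66.8%, 57.2% and 66.0% of the summed FPKM of the 9 genes in KO replicates 1 to 3, against 64.8%, 65.1% and 64.6% in WT. The sum itself was 317, 224 and 315 FPKM in KO and 223, 228 and 228 FPKM in WT.

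Of the reelin receptors, Vldlr was nearly absent from the knockout. Vldlr, which also binds triglyceride-rich lipoproteins, had 1, 2 and 0 counts in KO replicates 1 to 3, against 89, 113 and 109 in WT. Every KO library lay below every WT library, and a count of 0 in KO replicate 3 allows up to 0.169 CPM, against a WT mean of 6.06 ± 0.834 CPM (SD, n = 3). The summed counts, 3 in KO and 311 in WT, gave a ratio of KO to WT of 0.00909 (95% counting interval 0.00186 to 0.0268, exact binomial). The fitted log2 fold change, −6.61, depends on the prior count at such levels and became −7.44 without KO replicate 2 and −6.09 without KO replicate 3. Vldlr passed the filter on low counts only through its WT libraries. Already in WT it was a low message, above only 6.39% of the tested genes in FPKM.

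Lrp8 (apolipoprotein E receptor 2) was the more abundant of the reelin receptors in both groups. It had 120, 87.7 and 121 CPM in KO replicates 1 to 3, against 86.6, 88.1 and 95.0 CPM in WT. KO replicates 1 and 3 were above the WT libraries and KO replicate 2 was among them. The log2 fold change was 0.29 ± 0.12 (SE; 95% interval 0.02 to 0.55), 0.42 ± 0.042 without KO replicate 2 and 0.46 ± 0.055 with the length offset. Its share of the family's FPKM was 3.48% ± 0.0783 in KO and 3.56% ± 0.150 in WT (SD, n = 3 each).

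The Wnt co-receptors differed from each other. Lrp5 had 69.6, 60.4 and 75.1 CPM in KO replicates 1 to 3, against 99.9, 99.9 and 101 CPM in WT, with no overlap. Its log2 fold change was −0.55 ± 0.079 (SE; 95% interval −0.73 to −0.37), and −0.47 ± 0.045 without KO replicate 2. Lrp6 had 128, 90.4 and 135 CPM in KO, against 122, 123 and 119 CPM in WT. Here KO replicates 1 and 3 were the highest of all libraries and KO replicate 2 the lowest. Its log2 fold change was −0.04 ± 0.13 (95% interval −0.34 to 0.25), which turned to 0.12 ± 0.039 without KO replicate 2 and to 0.10 ± 0.065 with the length offset. Within each library the FPKM ratio of Lrp5 to Lrp6 was 0.962, 1.19 and 0.989 in KO, against 1.46, 1.44 and 1.501 in WT. All KO ratios were below all WT ratios, so the balance between the co-receptors differed also in KO replicate 2.

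Lrp4, the agrin receptor of the neuromuscular junction and a binding partner of sclerostin, was a low message in both groups. It had 101, 69 and 102 counts in KO, against 90, 113 and 101 in WT, and the groups overlapped. The log2 fold change was −0.25 ± 0.18 (SE; 95% interval −0.66 to 0.17), and −0.08 ± 0.16 without KO replicate 2.

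The distant relatives Lrp10 and Lrp12 went opposite ways. Lrp10, which moves between the trans-Golgi network and endosomes, had 3458, 3455 and 3352 counts in KO replicates 1 to 3, against 1402, 1387 and 1489 in WT. In CPM this was 188 ± 0.541 in KO and 83.2 ± 2.25 in WT (SD, n = 3 each), a 2.26-fold higher level in KO with hardly any spread. The log2 fold change was 1.18 ± 0.054 (SE; 95% interval 1.05 to 1.30), and 1.18 ± 0.038 without KO replicate 2. Lrp12 had 44.5, 38.1 and 44.5 CPM in KO, against 58.0, 55.9 and 57.6 CPM in WT, again with no overlap. Its log2 fold change was −0.43 ± 0.073 (95% interval −0.60 to −0.27), and −0.36 ± 0.055 without KO replicate 2. The FPKM ratio of Lrp10 to Lrp12 was 5.46, 6.39 and 5.48 in KO and 1.81, 1.92 and 1.92 in WT. In KO, Lrp10 took 17.7%, 25.3% and 17.8% of the family's FPKM, against 10.8%, 10.8% and 11.1% in WT. The higher share in KO replicate 2 came without more Lrp10, which had 56.1, 56.6 and 56.1 FPKM in KO replicates 1 to 3. Lrp1 had 212, 128 and 208 FPKM in the same libraries.

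Sorl1, a mosaic of LDL receptor repeats and the VPS10 domain that sorts the amyloid precursor protein, was at the limit of detection. It had 1, 3 and 1 counts in KO and 2, 0 and 0 in WT. No library passed 3 counts, so no fold is given, and the gene was not tested.

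**Figure D3:**
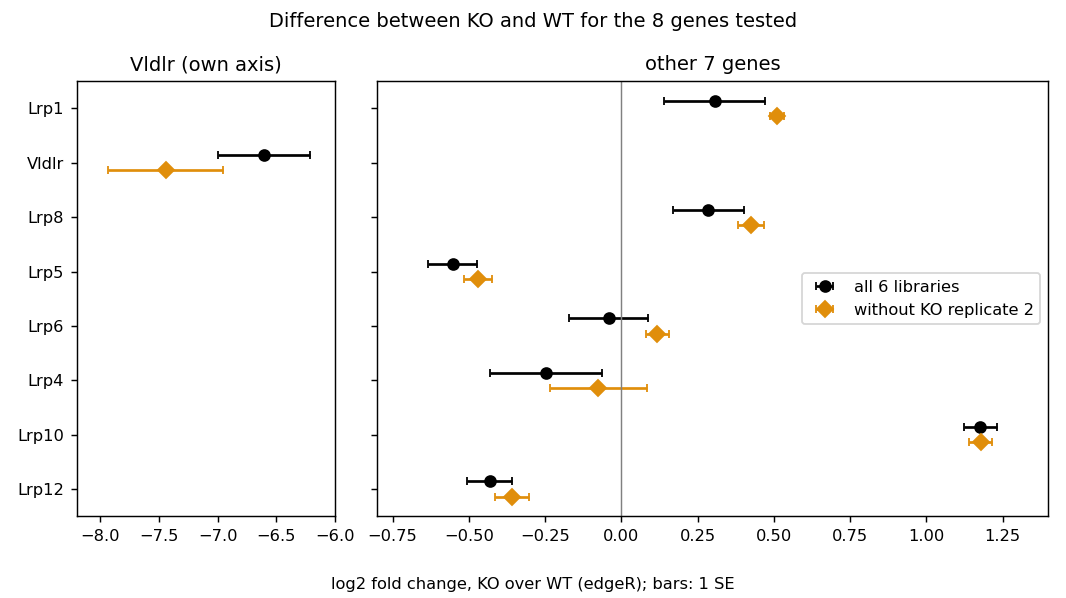
Log2 fold change of KO over WT for the 8 tested genes with bars of 1 SE, from all 6 libraries (black circles) and without KO replicate 2 (orange diamonds); Vldlr has its own axis. Leaving out KO replicate 2 moved Lrp1 to 0.51 and Lrp6 to 0.12 while Lrp10 stayed at 1.18.

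**Figure D4:**
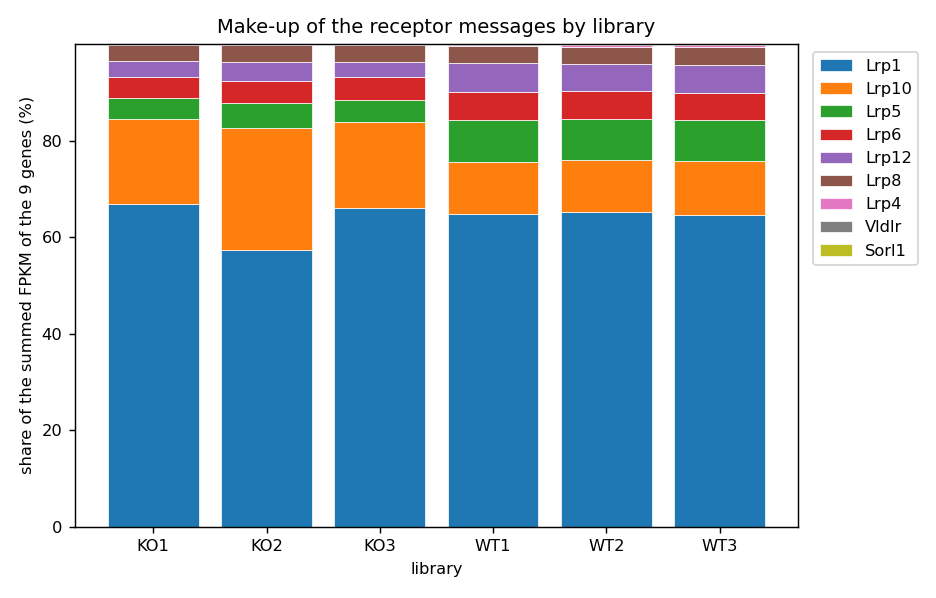
Share of each gene in the summed FPKM of the 9 genes, as a percentage, in each KO and WT library. Lrp1 holds the largest share everywhere, and Lrp10 holds more in each KO library (17.7% to 25.3%) than in any WT library (10.8% to 11.1%). The 25.3% is that of KO replicate 2, where Lrp1 is lowest among the KO libraries.

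Chromosomal neighbours were compared by a plan made with earlier results of these data known. Whether genes of this series move with their neighbours was not tested. For comparison, 30.5% of all tested genes were called higher and 29.2% lower, with a median log2 fold change of 0.0028. The 10 tested genes on either side of Vldlr had a median log2 fold change of 0.0052, with 7 called higher and 7 lower in KO. Around Lrp10 12 of 20 were higher and 4 lower, with a median of 0.30 against 1.18 for Lrp10 itself. Around Lrp12 13 of 20 were lower and 4 higher, with a median of −0.41 against −0.43 for Lrp12 itself. Those 20 ran from −4.82 to 3.43. The nearest on either side, Dpys (3.43) and Zfpm2 (0.26), had the opposite sign to Lrp12. The neighbours of Lrp8 had a median of 0.22 (11 higher, 3 lower), those of Lrp4 0.30 (13 higher, 1 lower) and those of Lrp6 0.14 (6 higher, 6 lower). Those of Lrp1 had a median of 0.09 (6 higher, 7 lower), the 15 of Lrp5 0.02 (6 higher, 3 lower) and those of Sorl1 −0.32 (7 higher, 10 lower). The part of the neighbourhood in the receptors' differences was not tested.

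Other receptors, listed as relatives of the family and including the VPS10 receptors Sorcs2 and Sort1, were mixed as well. Of 13 listed, 8 were in the tables and 6 tested, and 3 of these rose and 2 fell in KO by edgeR's test. That was 83.3% called, against 59.6% of all genes. Sorcs2, a VPS10 receptor of proneurotrophins, rose to 77.2 ± 5.78 CPM in KO, against 49.6 ± 4.52 CPM in WT (adjusted p = 2.01e-04). Lrp11 rose by 0.31 ± 0.054 on the log2 scale (adjusted p = 0.00102). Ldlrad3 fell to 19.7 ± 1.31 CPM in KO, against 38.0 ± 1.79 CPM in WT (adjusted p = 1.10e-05). Sort1, the sorting receptor sortilin, fell to 6.92 ± 1.09 CPM in KO, against 12.7 ± 0.647 CPM in WT (adjusted p = 3.32e-04).

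Ligands of the receptors changed in both directions. Of 24 endocytic and lipoprotein ligands, 22 were listed and 18 tested, and 6 rose and 8 fell, with a median log2 fold change of −0.08. That was 77.8% called, against 59.6% of all genes. Thbs1, a matrix glycoprotein that Lrp1 takes up and that binds Vldlr and Lrp8, had 3800, 2861 and 3789 CPM in KO, against 212, 198 and 215 CPM in WT (log2 fold change 4.06 ± 0.12, adjusted p = 3.30e-08). Every KO library was far above every WT library. A call and no overlap between the groups were among the conditions for naming Thbs1 from its list. Serpine2, a protease inhibitor cleared by Lrp1, had 2, 4 and 1 counts in KO, against 1843, 1827 and 1816 in WT (adjusted p = 9.70e-10). The ratio of WT to KO was 832 (95% counting interval 403 to 2070). Ccn2, a matricellular ligand of Lrp1 and Lrp6, rose by 3.12 ± 0.074 on the log2 scale (adjusted p = 9.10e-09). Mmp9, a protease cleared by Lrp1, fell by 1.58 ± 0.065 (adjusted p = 2.13e-07). Apoe, the lipoprotein ligand shared by most of the family, fell to 9.72 ± 1.17 CPM in KO, against 14.6 ± 1.18 CPM in WT (adjusted p = 0.00203). Reelin, the ligand of Vldlr and Lrp8, was under the floor of 3 counts: Reln had 0 counts over all KO libraries and 1 over all WT libraries.

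Of 11 chaperones and processing enzymes of the receptors, 10 were tested, and 1 rose and 6 fell, with a median of −0.26, where 29.2% of all genes fell. The number that fell was 3 without WT replicate 2 and 3 without WT replicate 3. Mesd, the chaperone that Lrp5 and Lrp6 need to leave the endoplasmic reticulum, fell to 121 ± 6.37 CPM in KO, against 164 ± 3.92 CPM in WT (log2 fold change −0.44 ± 0.060, adjusted p = 2.57e-04). Lrpap1, the chaperone that keeps ligands off Lrp1 on its way to the surface, lay at 53.8 ± 3.43 CPM in KO and 51.1 ± 2.49 CPM in WT (0.07 ± 0.069, adjusted p = 0.376). Ncstn, a subunit of the gamma-secretase that cuts receptor stubs, fell by 0.73 ± 0.056 (adjusted p = 8.30e-06), and Aph1a, another subunit, rose by 0.36 ± 0.059 (adjusted p = 7.39e-04). Adam17, a sheddase, fell by 0.51 ± 0.064 (adjusted p = 1.49e-04). Mylip, the ubiquitin ligase that sends Vldlr and Lrp8 to lysosomes, lay at 108 ± 2.28 CPM in KO and 111 ± 1.59 CPM in WT (adjusted p = 0.536).

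Among 20 endocytic adaptors and sorting proteins, all tested, 3 rose and 7 fell, with a median of 0.04. That was 50% called, against 59.6% of all genes. Without KO replicate 2, 5 rose and 8 fell, where 71.1% of all genes were called. Dab2, a clathrin adaptor that binds receptor tails, fell to 446 ± 39.9 CPM in KO, against 675 ± 18.0 CPM in WT (adjusted p = 1.27e-04). Gulp1, an adaptor that binds Lrp1, fell by 1.39 ± 0.14 on the log2 scale (adjusted p = 3.98e-05), and Picalm, a clathrin assembly protein, fell by 0.45 ± 0.059 (adjusted p = 1.98e-04). Snx17, which recycles Lrp1, lay at 73.8 ± 9.17 CPM in KO and 70.1 ± 1.04 CPM in WT (0.08 ± 0.086, adjusted p = 0.473), and the sign turned without KO replicate 2 (−0.02) and with the length offset (−0.02).

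Dab1, the adaptor that Vldlr and Lrp8 use, was nearly absent, with 2 counts over all KO libraries and 1 over all WT libraries. Of the 15 genes of the reelin list 13 were tested, and 3 rose and 3 fell. That was 46.2% called, against 59.6% of all genes. Without KO replicate 2, 6 rose and 4 fell, where 71.1% of all genes were called. The kinase genes Src and Fyn, which phosphorylate Dab1, differed in direction. Src rose by 0.40 ± 0.054 (adjusted p = 2.24e-04) and Fyn fell by 0.50 ± 0.061 (adjusted p = 1.32e-04). Itga3, an integrin chain that binds reelin, rose by 1.31 ± 0.093 (adjusted p = 5.20e-06), and Pik3r1, a regulatory subunit of PI3 kinase, fell by 0.42 ± 0.082 (adjusted p = 0.00214).

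Partners of the Wnt co-receptors changed in both directions. Of 37 listed, 31 were in the tables and 26 tested, and 8 rose and 11 fell, with a median of −0.06. That was 73.1% called, against 59.6% of all genes. Without KO replicate 2, 11 rose and 11 fell, where 71.1% of all genes were called. Dkk2, a secreted ligand of Lrp5 and Lrp6, had 93.0, 87.9 and 92.5 CPM in KO, against 2.89, 2.64 and 3.50 CPM in WT (log2 fold change 4.91 ± 0.095, adjusted p = 2.80e-09). Dkk3, a relative of the Dickkopf proteins, rose by 2.53 ± 0.067 (adjusted p = 2.02e-08). The Frizzled genes Fzd4 and Fzd3, receptors that pair with Lrp5 and Lrp6, fell by 1.64 ± 0.12 and 1.63 ± 0.19 (adjusted p = 6.95e-06 and 9.42e-05). Other Frizzled genes went both ways. Fzd2 rose to 136 ± 7.84 CPM in KO, against 78.0 ± 1.48 CPM in WT (adjusted p = 8.01e-06). Fzd7 rose by 0.29 ± 0.062 (adjusted p = 0.0032). Fzd5, Fzd6 and Fzd8 fell, and Fzd1 was not called. Lrp4 had few partners: Musk, the kinase it pairs with in muscle, had 1 count in KO and 0 in WT. Agrn, which encodes its ligand agrin, fell to 471 ± 63.3 CPM in KO, against 849 ± 4.89 CPM in WT (adjusted p = 6.53e-05), the only gene of 8 on that list that was tested.

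**Figure D5:**
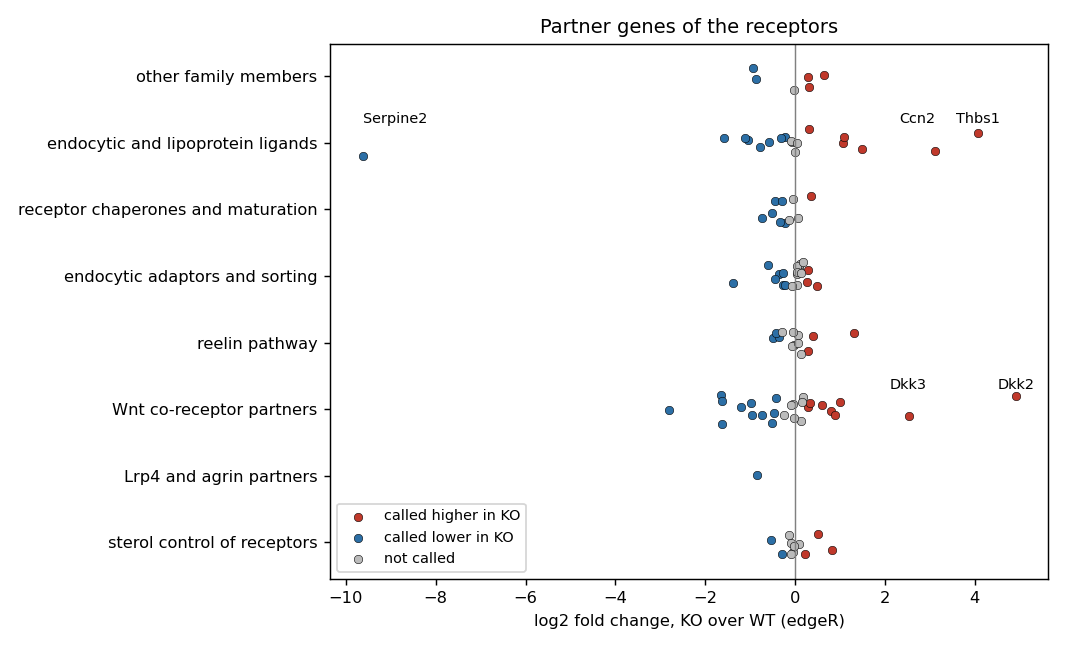
Log2 fold change of KO over WT for each tested gene of 8 lists of receptor partners, coloured by its call (red higher in KO, blue lower in KO, grey not called); vertical scatter within a list has no meaning. Thbs1 (4.06), Ccn2 (3.12), Dkk2 (4.91) and Dkk3 (2.53) stand to the right and Serpine2 to the left.

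Sterol control of the receptors was described by 13 genes, 11 of them tested, of which 3 rose and 2 fell, with a median of −0.04. That was 45.5% called, against 59.6% of all genes. Insig1, a sterol sensor and itself a target of SREBP factors, rose to 145 ± 3.23 CPM in KO, against 82.4 ± 5.62 CPM in WT (adjusted p = 1.04e-05). Insig2 fell by 0.54 ± 0.069 (adjusted p = 1.74e-04) and the oxysterol receptor gene Nr1h2 by 0.29 ± 0.065 (adjusted p = 0.00425). Over all 8 lists, counting each gene once, 27 of 103 tested genes rose and 40 fell. That was 65.0% called, against 59.6% of all genes. The median log2 fold change was −0.05, against 0.0028 over all genes. Leaving out each library in turn, 24 to 38 rose and 35 to 44 fell. Both top values came without KO replicate 2, where 71.1% of all genes were called.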

How the data were processed

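RNA was extracted with TRIzol and made into TruSeq Stranded mRNA libraries, per the labels' protocols. The authors deposited whole-number read counts per gene and a table of FPKM values. The tools named are Trimmomatic, HISAT2, HTSeq, Cufflinks and DESeq, with mouse build GRCm39, per the submitters' processing notes. No source used here gives their versions, the annotation or the strand setting, so reads of antisense genes annotated over Lrp1, Lrp8, Lrp10 and Sorl1 cannot be told apart. Dividing each count by its FPKM and by the column total gave a whole-number length within 0.01 bases for 100% of 13369 genes with at least 10 counts. These are the gene lengths used.

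The counts of all genes kept by filterByExpr (11972) entered 1 edgeR fit (4.0.16, R 4.3.3) of KO against WT with TMM scaling, by the quasi-likelihood test with Benjamini-Hochberg adjustment. A gene was called at an adjusted p under 0.05. The SE is the size of the log2 fold change over the square root of F, and 95% intervals use it. It can be too small for genes with few counts. CPM use TMM-scaled totals. Counting intervals and the floor of 3 counts per library cover counting error only. The 9 genes, the 8 partner lists and the markers were chosen with earlier results of these data known. Named from each list were the up to 4 called genes with the largest change, a mean of at least 5 CPM and no overlap between groups, plus a fixed set of partners, members and the targeted gene. Other Frizzled genes are given beside Fzd3 and Fzd4 and were not followed one by one through the alternatives. Gene order came from RefSeq (GRCm38.p6), and starts were matched to GENCODE M21. Alternatives were DESeq2 1.42.0, limma-voom (limma 3.58.1), other scalings and filters, a replicate block, leaving out each library and a length offset. The fit was tested on simulated counts. Some genes on the lists count in the totals but are not reported here by name. A2m, Lrp1b and Lrp3, which were also listed, are not analysed here. There were 0 columns of other samples.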

Additional observations from a re-analysis of the deposited data

How the results depend on the processing

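Leaving out each library in turn, the log2 fold change ran from 0.19 to 0.51 for Lrp1. It ran from −0.15 to 0.12 for Lrp6 and from 0.21 to 0.42 for Lrp8. The number of receptor genes called higher ran from 1 to 4, and the number called lower stayed at 3. The top value of each range came without KO replicate 2. There 71.1% of all genes were called in either direction, against 59.6% with all libraries. Under the same exclusions the log2 fold change ran from −0.021 to 0.16 for Snx17, which was not called with all libraries. With the offset for gene length Lrp1 was called at 0.51, Lrp8 at 0.46, Lrp6 turned to 0.10 and Snx17 to −0.024. With this offset 3 receptor genes were called higher and 3 lower, where 67.1% of all genes were called in either direction. Without TMM scaling Lrp8 was called at 0.30, which made 2 called higher. No pairing by replicate number was visible (correlations of same-numbered deviations of −0.07, −0.09 and 0.02). Those of unlike-numbered libraries ran from −0.08 to 0.11. The deviations hold the length trend of KO replicate 2, so they cannot show that the libraries were unpaired. With the replicate number as a block Lrp8 was called at 0.27, which again made 2. The counts over all partner lists were 27 higher and 40 lower, as without the block. The share of all genes called without TMM scaling or with the block is not given, so nothing is read from these counts. DESeq2, limma-voom, DESeq2 size factors and both other filters turned no direction and moved no call of a gene named from the lists by the rules above. They moved counts of calls in a list by at most 1, as for the ligands (7 higher and 7 lower with DESeq2). The difference of mean log2(FPKM + 1), KO minus WT, was −0.55 for Vldlr, −0.10 for Lrp4, 1.16 for Lrp10 and 0.0068 for Sorl1. With a pseudocount of 0.1 these were −2.46, −0.22, 1.19 and 0.065. Depth limits Sorl1, Reln, Dab1 and Musk, and Vldlr in KO. The cause of these shifts was not tested.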

Other observations

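By their standing among all tested genes in FPKM, Lrp1 lay above 97.6% of them in KO and 97.3% in WT, and Lrp10 above 90.7% in KO and 76.6% in WT. Lrp5 lay above 58.9% in KO and 70.2% in WT, and Lrp12 above 49.7% in KO and 58.6% in WT.

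The genes whose pattern over the 6 libraries was most like that of Lrp10 were Abhd8, Anxa11 and Tcim, by the root mean square difference of log2 CPM centred on each gene's mean (0.03, 0.04 and 0.04). Abhd8 averaged 86.3 CPM in KO and 38.6 CPM in WT. Those most like Vldlr were Lrrc4b, Osbpl6 and Postn (0.22, 0.28 and 0.29). Osbpl6 averaged 0.0363 CPM in KO and 7.37 CPM in WT, and Postn 1.08 CPM in KO and 31.0 CPM in WT. With 6 libraries in 2 groups these distances mostly compare the sizes of the group differences.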
